A study of Homo sapiens with 11 samples.

Results

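Caveolae are small flask-shaped pits of the plasma membrane that buffer membrane tension and hold signalling proteins. Caveolins are the integral membrane proteins of the pit, cavins form a cytoplasmic coat over it, EHD2 is an ATPase that holds its neck at the cell surface, and PACSIN2 is an F-BAR protein that bends the membrane while the pit forms. Caveolae are abundant in alveolar type I cells of the lung, in endothelium, in fat and in muscle. The 7 genes described here were CAV1, CAV2, CAVIN1 (formerly PTRF), CAVIN2 (formerly SDPR), CAVIN3 (formerly PRKCDBP), EHD2 and PACSIN2, of 20245 genes that could be named on the array, and 11 probes measured them. The genes were taken by family name, and the family was selected on its normalised levels in the 4 groups, so the values below describe these arrays and the calls are not independent evidence.

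The study put the TRIM58 ubiquitin ligase, silenced in many lung adenocarcinomas, back into 2 human lung adenocarcinoma cell lines, A549 and HCC827, and measured mRNA on 11 single-colour arrays. Mock cells carried the empty retroviral vector pMXs-Neo, TRIM58-WT cells carried the same vector with FLAG-tagged wild-type TRIM58 coding sequence, and all cells had been selected with G418. There were 4 A549 mock arrays (1-1, 1-2, 2 and 3), 3 A549 TRIM58-WT arrays, 2 HCC827 mock arrays and 2 HCC827 TRIM58-WT arrays. Mock arrays 1-1 and 1-2 were taken, from their titles, as repeats of the same control and were averaged to 1 replicate, which left 10 replicates. According to the methods, clones were isolated after selection, so a difference between groups may also be a difference between clones, and the labels do not say whether replicates were separate clones or cultures of the same clone. P-values then measure only the spread between these samples, which may be technical. For its growth assays the paper names clones of A549 but crude transfectants of HCC827. The array labels do not say which were used. If the arrays used the same cells, clones against crude cells cannot be told apart from A549 against HCC827.

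Every level below is log2 of the processed signal of a probe relative to the 75th percentile of its array. A probe was well above background where the scanner software said so for more than 0.5 of its spots. Between 40.1% and 49.99% of probes were well above background on an array, and no spot was saturated. The A549 arrays lay on 2 slides. Mock 1-1, mock 2 and TRIM58-WT 1 were on slide 1 with all HCC827 arrays, and mock 1-2, mock 3, TRIM58-WT 2 and TRIM58-WT 3 were on slide 2. The 75th percentile signal was 60.3 on mock 3, 62.5 on TRIM58-WT 2 and 56.6 on TRIM58-WT 3, against 90.5 to 125 on the other arrays. The TRIM58 probe was well above background only on the array labelled A549 mock 3, at -0.71, and lay between -5.64 and -4.63 on the other 10 arrays. Where this probe lies relative to the coding sequence in the vector was not analysed here, so it does not check the labels of the TRIM58-WT arrays. Because mock 3 stood apart in this signal, the A549 values of the members and of the called genes of the lists are also given without that array. Whether its label is right was not tested. Without mock 3 the mock replicates left are mock 2, on slide 1, and mock 1, averaged over both slides. TRIM58-WT 2 and 3 are on slide 2, so group is then more tied to slide and to the 75th percentile signal. Slide 1 held a single A549 TRIM58-WT array, so a value within slide 1 sets 1 array against 2, its spread comes from the mock arrays alone, and it is given with no p. Mock 1-1 and 1-2 lay on different slides, so a fit with slide as a block took them as separate samples. Such a fit counts 1 replicate as 2 and can lower p. All 5 epithelial markers (EPCAM, KRT8, KRT18, KRT7 and CDH1) were well above background on every mock array and every HCC827 array. None of the 5 endothelial or 4 adipocyte markers was well above background on any array.

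The first comparison asked which caveolar genes differed between A549 cells with and without TRIM58-WT. CAVIN3 fell, and it was the only 1 of the 7 members called at an adjusted p below 0.05 and a fold of at least 2, where 7.93% of the 11184 genes tested were called. The cavins bind each other and phosphatidylserine at the caveola, and CAVIN3 was first known as a binding partner of protein kinase C delta. Its level was 3.57 on mock 1-1, 3.54 on mock 1-2, 3.72 on mock 2 and 2.96 on mock 3. It was -5.11, -4.31 and -4.73 on TRIM58-WT 1, 2 and 3, where no array had the probe well above background. The groups did not overlap, and the signal in TRIM58-WT cells was only a bound. CAVIN3 was at least 65.8-fold lower in TRIM58-WT than in mock cells, the bright mean being set against the lowest signal well above background on each TRIM58-WT array. The adjusted p of 0.00015 (limma, 3 against 3 replicates) belongs to the fitted log2 difference of -8.13, whose size rests on signal at background. The fitted difference was -8.76 within slide 1, -7.77 within slide 2 and -8.35 without mock 3, the latter pair with adjusted p = 0.0037 and 0.0002.

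In HCC827 the same probe was bright in every group. CAVIN3 was at 3.77 and 3.89 on the mock arrays and at 5.39 and 5.07 on the TRIM58-WT arrays. Both TRIM58-WT arrays lay above both mock arrays. The log2 difference was 1.40 ± 0.17 (SE), which is 2.65-fold, with an adjusted p of 0.0612 (limma, 2 against 2 replicates), so it did not pass the threshold. With each array centred on its median it did (1.43, adjusted p = 0.0149). The difference between the lines was tested in a fit of all 4 groups, where 4.61% of 12829 genes were called at the adjusted p alone. There CAVIN3 was the only 1 of 7 members called (fitted log2 difference of the changes -9.53, adjusted p = 5.4e-05), a size that rests on A549 signal at background. In the mock cells the lines were close for this gene, with 3.41 ± 0.40 (SD, n = 3) in A549 and 3.83 ± 0.085 (SD, n = 2) in HCC827 (adjusted p = 0.297).

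**Figure D1:**
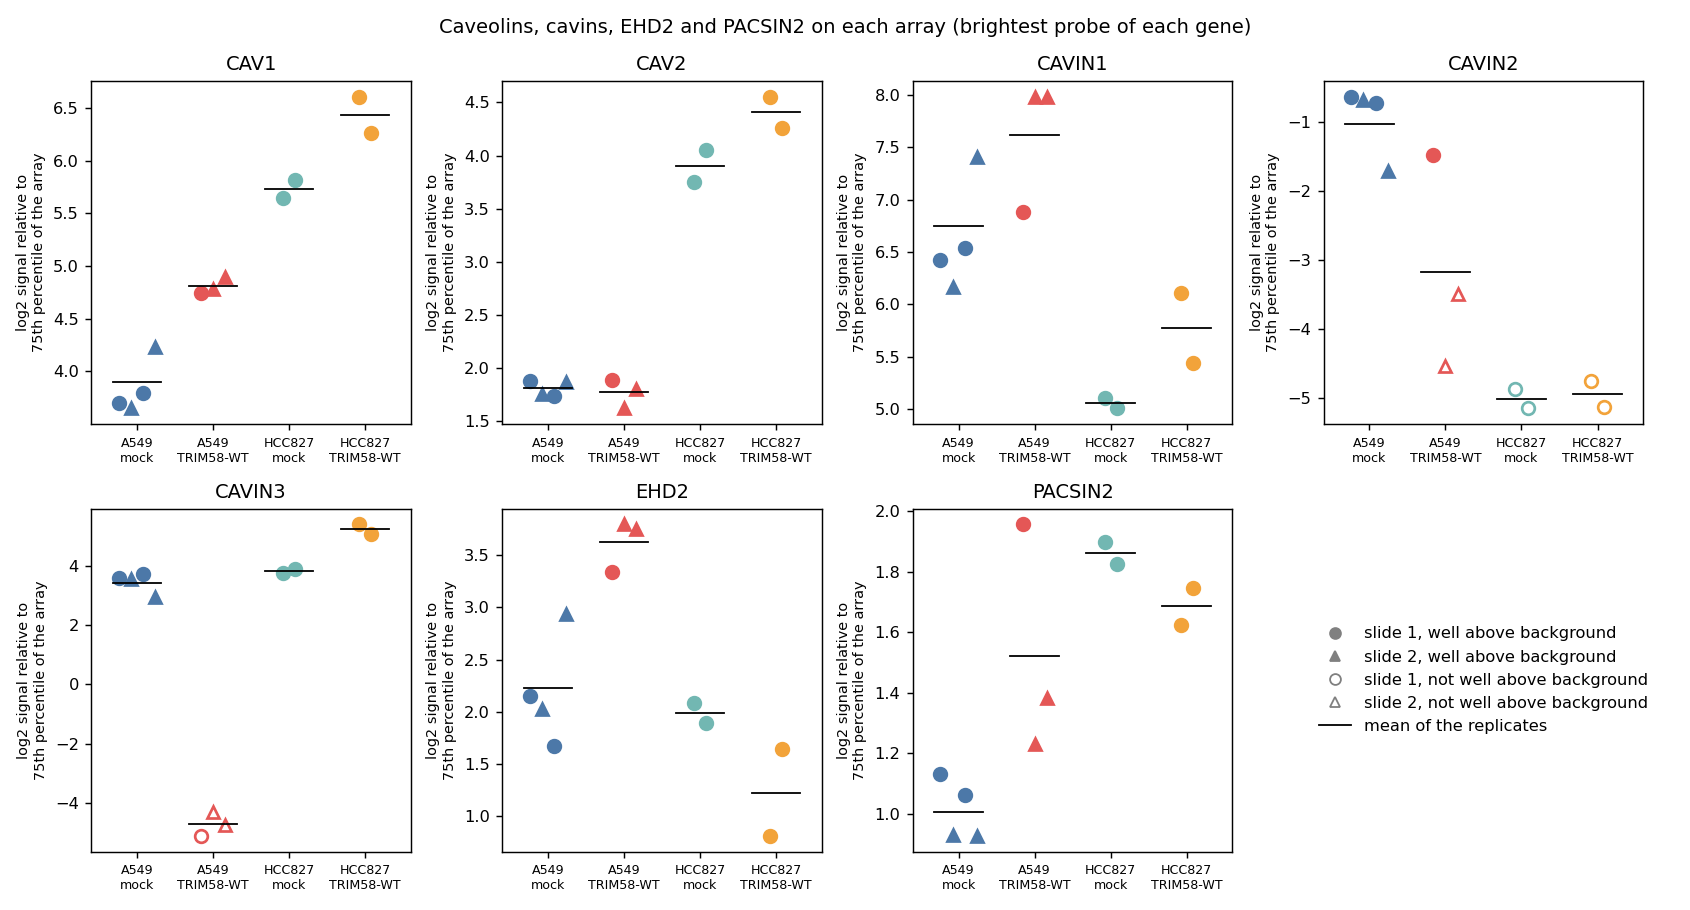
Level of each member on each array (brightest probe; y axis, log2 signal relative to the 75th percentile of the array, with its own range in each panel) in the 4 groups along the x axis; circles are slide 1, triangles slide 2, open symbols not well above background, and lines the mean of the replicates. CAVIN3 is open only in A549 TRIM58-WT, between -5.11 and -4.31, while CAV2 in A549 stays between 1.62 and 1.89 in both groups.

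None of the tested genes next to CAVIN3 on chromosome 11 was called lower. Of the 5 protein-coding genes on either side in RefSeq order, 4 were tested in A549, a window chosen after values were seen. APBB1, a binding partner of the amyloid precursor protein, was higher in TRIM58-WT cells (log2 difference 1.34, adjusted p = 0.0182). SMPD1, which encodes acid sphingomyelinase, differed by 0.73, FHIP1B by -0.073 and ARFIP2 by -0.35, and none of these 3 passed the test.

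CAV1, the principal caveolin outside striated muscle, is the neighbour of CAV2, which needs CAV1 to reach the cell surface. The stretches of 250 bases before the most upstream RefSeq start of each are shown with that of CAVIN2, because the caveolins are neighbours measured side by side here and because the CAVIN2 stretch is poor in CpG. They are on the plus strand for the caveolins and on the minus strand for CAVIN2, 5′ to 3′ in the gene's direction (GRCh38.p14, RefSeq), and capitals mark GC boxes, GGGCGG or CCGCCC.
CAV1, chr7:116524759-116525008: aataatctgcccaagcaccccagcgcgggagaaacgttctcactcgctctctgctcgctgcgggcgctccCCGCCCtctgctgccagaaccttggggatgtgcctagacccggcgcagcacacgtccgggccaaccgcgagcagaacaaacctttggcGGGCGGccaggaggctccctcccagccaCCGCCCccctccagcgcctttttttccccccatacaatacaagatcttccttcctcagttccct
CAV2, chr7:116499488-116499737: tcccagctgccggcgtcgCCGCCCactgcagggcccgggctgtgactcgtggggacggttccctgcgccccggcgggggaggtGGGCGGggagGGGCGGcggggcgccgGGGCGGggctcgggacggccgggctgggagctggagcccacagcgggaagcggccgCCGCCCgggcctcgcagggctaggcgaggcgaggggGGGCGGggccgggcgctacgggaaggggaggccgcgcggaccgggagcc
CAVIN2, chr2:191847089-191847338: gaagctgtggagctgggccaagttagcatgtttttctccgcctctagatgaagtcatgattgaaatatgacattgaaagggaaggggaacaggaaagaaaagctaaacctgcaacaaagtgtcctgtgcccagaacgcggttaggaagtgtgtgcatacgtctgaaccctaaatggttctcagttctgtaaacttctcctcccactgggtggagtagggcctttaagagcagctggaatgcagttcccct

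The CAV1 stretch held 3 GC boxes and 18 CpG, the CAV2 stretch 6 GC boxes and 35 CpG, and the CAVIN2 stretch no GC box and 4 CpG. Over 35114 such stretches the median was 11 CpG, and 42.6% held a GC box on either strand. At least as many CpG as in CAV2 were found in 5.8% of them. Also searched for on both strands were the TATA box TATAAA (in 10.7% of stretches), the AP-1 motif TGACTCA (4.2%) and the E box CACGTG (6.3%), and these letters were in none of the 3 stretches; no motif found overlapped another. The table used here held stretches for 5 of the 7 members, without CAVIN1 and CAVIN3.

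On its brightest probe CAV1 was at 3.70, 3.65, 3.80 and 4.23 on A549 mock 1-1, 1-2, 2 and 3, and at 4.75, 4.78 and 4.89 on TRIM58-WT 1, 2 and 3. Every TRIM58-WT array lay above every mock array, and mock 3 was the highest mock. The log2 difference was 0.91 ± 0.20 (SE; 1.87-fold, limma adjusted p = 0.0394), which passed the adjusted p but not the 2-fold threshold. Without mock 3 it was 1.07 (adjusted p = 0.0142) and passed both. It was 0.94 with slide as a block (adjusted p = 0.0117), 0.997 within slide 1 and 0.90 within slide 2 (adjusted p = 0.134). The adjusted p was 0.177 without mock 1 and 0.159 without mock 2, 0.0509, 0.144 and 0.162 without TRIM58-WT 1, 2 and 3, and 0.529 with each array centred on its median. The dimmer CAV1 probe differed by 1.13 (adjusted p = 0.140), and its groups overlapped because mock 3, at 4.05, was above TRIM58-WT 1, at 3.87.

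On the HCC827 mock arrays CAV1 was at 5.65 and 5.81, against 6.61 and 6.26 with TRIM58-WT. The groups did not overlap, but the log2 difference of 0.70 ± 0.18 (SE) had an adjusted p of 0.150. The 2 lines' changes differed by 0.20 (95% confidence interval -0.47 to 0.88, adjusted p = 0.761).

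CAV2 was at 1.88, 1.76, 1.74 and 1.87 on A549 mock 1-1, 1-2, 2 and 3, and at 1.89, 1.62 and 1.80 on TRIM58-WT 1, 2 and 3. These levels overlapped fully, and the log2 difference was -0.038 (95% confidence interval -0.41 to 0.34, adjusted p = 0.909). The value did not pass the test, and the interval leaves out a 2-fold change in either direction. In HCC827 mock levels of 3.75 and 4.05 stood against 4.55 and 4.26 with TRIM58-WT, a log2 difference of 0.51 ± 0.19 (SE, adjusted p = 0.245). The lines' changes differed by -0.55 (adjusted p = 0.293). No A549 array had the dimmer CAV2 probe well above background, and it was not tested there. Across the 6 A549 replicates the Pearson correlation of CAV1 with CAV2 was -0.11, and over all 10 replicates, where the lines stand apart, it was 0.91.

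CAVIN1, the cavin without which caveolae do not form, was at 6.43, 6.17, 6.54 and 7.40 on A549 mock 1-1, 1-2, 2 and 3, and at 6.88, 7.98 and 7.99 on TRIM58-WT 1, 2 and 3. Mock 3 lay above TRIM58-WT 1, so the groups overlapped, and within each slide the TRIM58-WT arrays were the higher ones. The log2 difference was 0.87 ± 0.42 (SE, adjusted p = 0.258), with 0.40 within slide 1, 1.20 within slide 2 (adjusted p = 0.193) and 1.20 without mock 3 (adjusted p = 0.111). In HCC827 mock levels of 5.10 and 5.01 stood against 6.11 and 5.44 with TRIM58-WT, a log2 difference of 0.72 (adjusted p = 0.234), or 0.39 without TRIM58-WT 1 and 1.05 without TRIM58-WT 2 (adjusted p = 0.362 and 0.0799). The dimmer CAVIN1 probe gave -0.44 in HCC827 (adjusted p = 0.501), opposite in sign, and 0.74 in A549 (adjusted p = 0.220). The lines' changes differed by 0.15 on the brightest probe (95% confidence interval -1.26 to 1.55, adjusted p = 0.926).

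CAVIN2, a phosphatidylserine-binding cavin that shapes caveolae in some tissues, was at -0.63, -0.67, -0.73 and -1.71 on A549 mock 1-1, 1-2, 2 and 3, all well above background. It was at -1.47 on TRIM58-WT 1, still well above background, and at -4.54 and -3.49 on TRIM58-WT 2 and 3, which were not. TRIM58-WT 1 lay above mock 3, so the groups overlapped. The log2 difference was -2.13 ± 0.77 (SE, adjusted p = 0.147), with -0.79 within slide 1 and -2.47 without mock 3 (adjusted p = 0.132). Sizes below the background of TRIM58-WT 2 and 3 are not measured, and with normexp background correction the difference was -0.40 (adjusted p = 0.0905). The gene was called with slide as a block (adjusted p = 0.0323) and without TRIM58-WT 1 (adjusted p = 0.0227), where both TRIM58-WT arrays left were at background. On the 4 HCC827 arrays CAVIN2 lay between -5.15 and -4.75 and was not well above background, so no comparison was made there.

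EHD2 was at 2.15, 2.03, 1.67 and 2.94 on A549 mock 1-1, 1-2, 2 and 3, and at 3.33, 3.79 and 3.74 on TRIM58-WT 1, 2 and 3. Every TRIM58-WT array was above every mock array, with mock 3 again the highest mock. The log2 difference was 1.39 ± 0.34 (SE; 2.62-fold) with an adjusted p of 0.0577, and 1.74 with an adjusted p of 0.0107 without mock 3. It was 1.34 with slide as a block (adjusted p = 0.0114, called), 1.43 within slide 1 and 1.29 within slide 2 (adjusted p = 0.117). In HCC827 the order was the opposite, with mock levels of 2.08 and 1.89 against 0.81 and 1.64 with TRIM58-WT, a log2 difference of -0.76 ± 0.31 (SE, adjusted p = 0.275). It was -0.35 without TRIM58-WT 1 and -1.18 without TRIM58-WT 2 (adjusted p = 0.431 and 0.0794). The lines' changes differed by 2.15 ± 0.55 (SE), which did not pass the test at an adjusted p of 0.0736, and by 2.50 without mock 3 (adjusted p = 0.0111). Across the 6 A549 replicates EHD2 correlated with CAV1 at r = 0.96 and with CAVIN3 at r = -0.88, replicates that share the 2 groups and slides.

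PACSIN2 was at 1.13, 0.93, 1.06 and 0.93 on A549 mock 1-1, 1-2, 2 and 3, and at 1.96, 1.23 and 1.38 on TRIM58-WT 1, 2 and 3. The groups did not overlap, and TRIM58-WT 1 stood above the other two. The log2 difference was 0.52 ± 0.23 (SE, adjusted p = 0.217), and the dimmer probe gave 0.97 ± 0.21 (SE, adjusted p = 0.0384), just under 2-fold. The brightest probe gave 0.48 without mock 3 (adjusted p = 0.276), 0.30 without TRIM58-WT 1 (adjusted p = 0.197), 0.57 with slide as a block (adjusted p = 0.0405) and 0.15 with each array centred on its median. In HCC827 the differences were -0.18 and -0.24 for the 2 probes (adjusted p = 0.488 and 0.557). The lines' changes differed by 0.69 and 1.21 (adjusted p = 0.289 and 0.0896).

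Over the members tested, the median log2 difference was 0.52 in A549 (7 genes) and 0.61 in HCC827 (6 genes), beside 0.028 and 0.0076 over all genes. The A549 value depends on the scaling, as centring each array on its median moved the median of all probes by -0.37 there. The 16 tested genes of other endocytosis, described below, had medians of 0.31 in A549 and -0.0085 in HCC827. In A549 without mock 3, 3 members were called (CAV1, CAVIN3 and EHD2), where 13.5% of all genes were. In that fit group is more tied to slide. In HCC827 limma called 0 of 6 members tested, against 1.07% of 12180 genes, with 4 at an unadjusted p below 0.05 (CAV1, CAV2, CAVIN1 and CAVIN3), where 21.8% of all genes had such a p. The test with unequal variances that the methods name for other data also called 0 there.

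**Figure D2:**
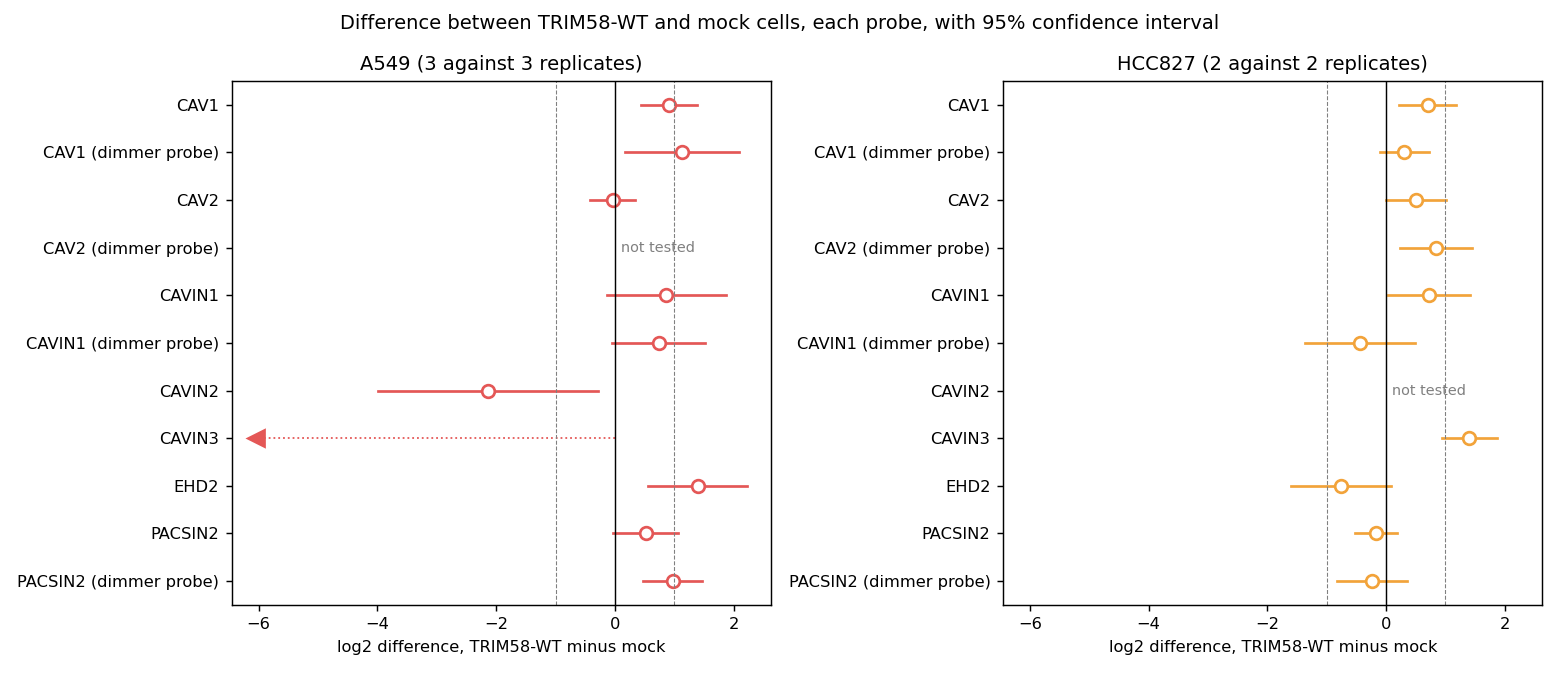
Log2 difference between TRIM58-WT and mock cells (x axis) for each of the 11 probes (y axis) in A549 and HCC827, with 95% confidence intervals; filled symbols would be called, dashed lines mark 2-fold, and the arrow is the bound for CAVIN3. The arrow, at least 65.8-fold lower in A549, stands opposite a value of 1.40 in HCC827, and EHD2 is at 1.39 and -0.76.

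The mock cells gave the level of each gene in the 2 lines without TRIM58 from the vector. Of the 7 members, 4 differed between A549 and HCC827 mock cells by the same thresholds, where 31.6% of all 12829 genes did. Both caveolins were lower in A549, CAV1 by a log2 difference of -1.83 ± 0.21 (SE, 3.56-fold, adjusted p = 0.0002) and CAV2 by -2.09 ± 0.18 (SE, 4.26-fold, adjusted p = 3.6e-05). The dimmer CAV1 probe gave -1.95 (adjusted p = 0.0048). On the brightest probe the CAV1 groups were, in ascending order, A549 mock, A549 TRIM58-WT, HCC827 mock and HCC827 TRIM58-WT, with no overlap between neighbours. On the dimmer CAV1 probe the 2 A549 groups overlapped. The 2 A549 groups of CAV2 overlapped at the bottom of its order on its brightest probe.

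CAVIN1 and CAVIN2 went the other way. CAVIN2 was at least 4.60-fold higher in A549 mock than in HCC827 mock cells, where it was not well above background. The limma adjusted p of 0.0036 belongs to the fitted log2 difference of 3.97, whose size rests on HCC827 signal at background. CAVIN1 was higher in A549 by 1.69 ± 0.43 (SE, 3.23-fold, adjusted p = 0.0142) on its brightest probe, and by 0.17 (adjusted p = 0.744) on its dimmer probe. Without HCC827 mock 1 or mock 2 the CAVIN1 call was lost (adjusted p = 0.0681 and 0.0790). PACSIN2 differed by -0.86 (adjusted p = 0.0148), under 2-fold, and EHD2 by 0.24 (95% confidence interval -0.64 to 1.13, adjusted p = 0.644).

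**Figure D3:**
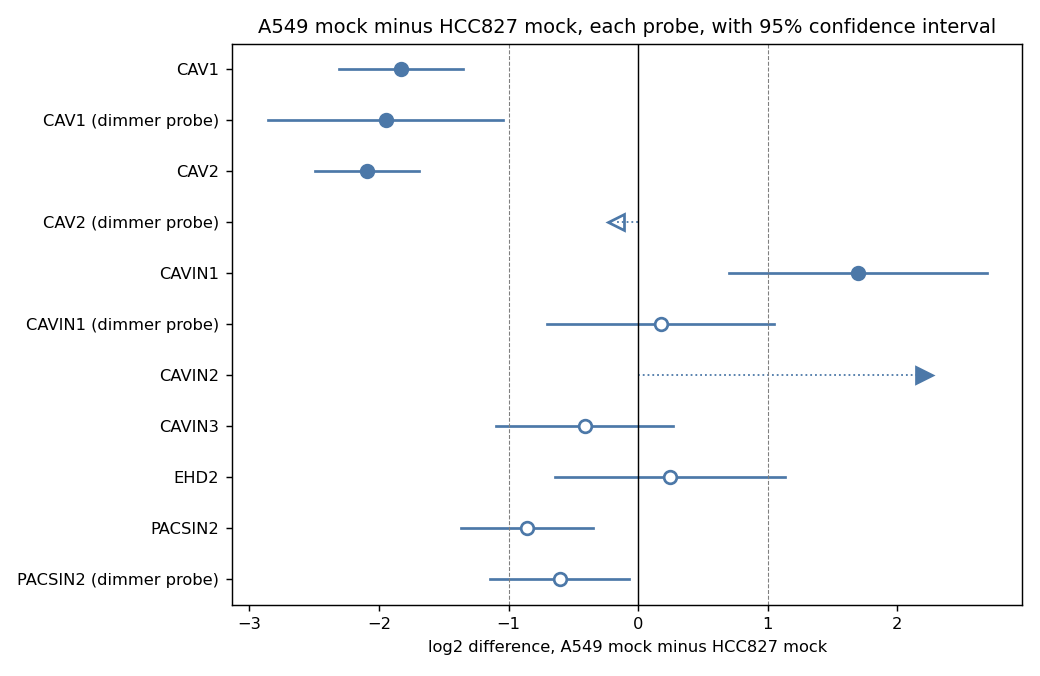
Log2 difference between A549 mock and HCC827 mock cells (x axis) for each of the 11 probes (y axis), with 95% confidence intervals; filled symbols were called, arrows are bounds (open where not called) and dashed lines mark 2-fold. Both CAV1 probes and the brighter CAV2 probe lie left of 0, at -1.83, -1.95 and -2.09, and the brightest CAVIN1 probe lies right of it, at 1.69.

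Other caveolar and endocytic genes were read from 3 lists. Of 7 caveolar relatives, 5 were tested in A549 and 1 was called. This was PACSIN1, the neuronal relative of PACSIN2, well above background in all mock and in no TRIM58-WT array. As a bound it was at least 1.11-fold lower in TRIM58-WT cells. The limma adjusted p of 0.0031 belongs to the fitted log2 difference of -2.08, whose size rests on signal at background. The call was lost with normexp background correction (adjusted p = 0.576) and made without mock 3 (adjusted p = 0.0024). Of 9 partners and cargo with a probe, 7 were tested and 1 was called, PRKCA, which encodes protein kinase C alpha (log2 difference 1.37, adjusted p = 0.0152, and 1.56 without mock 3, adjusted p = 0.0051). Its call was lost in 9 of 21 alternatives, among them the fits without mock 1, mock 2, TRIM58-WT 2 or TRIM58-WT 3 (adjusted p = 0.0857, 0.0746, 0.0693 and 0.0738). Of 17 genes of other endocytosis, 16 were tested and 1 fell, ARHGAP26, a GTPase activator of a clathrin-independent route (log2 difference -1.76, adjusted p = 0.0052, and -1.89 without mock 3, adjusted p = 0.0035). Clathrin light chains, AP2 subunits and flotillins were among the 15 not called. Of these the light chain CLTB differed by -1.08 without overlap and narrowly missed the threshold (limma, adjusted p = 0.0518). The clathrin heavy chain CLTC was not tested, as its brightest probe was well above background on no array. These counts of 1 of 5, 1 of 7 and 1 of 16 stand beside 7.93% of all genes. With the test with unequal variances all 3 A549 calls were lost. The adjusted p of that test was 0.107 for PACSIN1, 0.158 for PRKCA and 0.109 for ARHGAP26. It also called 0 of the 5 epithelial markers in A549, of which limma called 2, so the loss is not particular to these 3 genes. The share of all genes it called is not given here. The medians of the 3 lists were -0.35, 0.031 and 0.31. In HCC827 limma called 0 of 6, 0 of 8 and 0 of 16, with 1, 3 and 0 at an unadjusted p below 0.05 beside 21.8% of all genes. The test with unequal variances, which has little power at 2 against 2 replicates, called 0.

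ARHGAP26 and PACSIN1 were also the called genes of these lists in the difference between the lines (-2.11, adjusted p = 0.0065, and -1.79, adjusted p = 0.0168), and without mock 3 (-2.24 and -1.64, adjusted p = 0.0018 and 0.0084). The PACSIN1 size rests on A549 TRIM58-WT signal at background. Its call was lost with normexp (-0.095, adjusted p = 0.825), with the replicate block (adjusted p = 0.0729), and without A549 TRIM58-WT 3 (adjusted p = 0.0504), HCC827 mock 1 (0.0696), HCC827 mock 2 (0.0750) or HCC827 TRIM58-WT 2 (0.0665). In the mock cells 1 of 6 relatives, 6 of 8 partners and 4 of 16 other endocytic genes differed, beside 31.6% of all genes. PACSIN1 was lower in A549 (-3.49, adjusted p = 5.5e-06), as were ROR1, a receptor that binds CAV1 and CAVIN1 (-2.31, adjusted p = 2.9e-05), and PRKCD, the kinase that CAVIN3 was named for (-1.42, adjusted p = 0.0004). ARHGAP26 (2.92, adjusted p = 1.0e-05) and FLOT2, a flotillin of other membrane domains (1.45, adjusted p = 0.0004), were higher in A549. NOS3, the endothelial nitric oxide synthase, was at least 3.40-fold lower in A549, where no array had it well above background (adjusted p = 0.0017). This bound equals the fitted fold, and with normexp the log2 difference was -0.42 and not called (adjusted p = 0.0730). The other called genes named were higher in A549 and each lost its call when some single replicate was left out. With normexp INSR, SRC and AP2B1 differed by 0.62, 0.76 and 0.74, under 2-fold. INSR, the insulin receptor, differed by 1.53 (adjusted p = 0.0204, and 0.0580, 0.0593, 0.0524 and 0.138 without A549 mock 1, A549 mock 2, HCC827 mock 1 and HCC827 mock 2). SRC, the kinase that phosphorylates CAV1, differed by 1.07 (adjusted p = 0.0102), by 0.95 without A549 mock 2 and by 0.75 without HCC827 mock 2. Of the clathrin adaptor subunits, AP2B1 differed by 1.08 (adjusted p = 0.0028), or 0.95 without HCC827 mock 2. AP2A2 differed by 1.51 (adjusted p = 0.0309), and its adjusted p was 0.0737 without A549 mock 1 and without mock 3, and 0.110 and 0.138 without HCC827 mock 1 and mock 2.

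Cell type markers also differed between the A549 groups. Of the muscle list 1 of 3 genes tested was called, and of the epithelial list 2 of 5, beside 7.93% of all genes. CNN1, a smooth muscle calponin, was well above background on 3 of 3 TRIM58-WT and 0 of 4 mock arrays (limma, adjusted p = 0.0289). DES and ACTA2 were well above background on every A549 array, and MYH11 and MYOD1 on none. The muscle list summed to 0.82 to 1.43 on mock arrays and to 1.64 to 1.88 on TRIM58-WT arrays. EPCAM was well above background on 4 of 4 mock and 1 of 3 TRIM58-WT arrays, and KRT8, KRT18, KRT7 and CDH1 on every array. EPCAM and KRT8 were called lower (limma, adjusted p = 0.0117 and 0.0261). The epithelial list summed to 10.4 to 11.1 on mock arrays and to 10.1 to 10.7 on TRIM58-WT arrays. Of the fibroblast list LUM was well above background on mock 1-1, 1-2 and 2 and on no other array, and the list summed to 0.12 to 0.26 on those arrays, -2.21 on mock 3 and -2.44 to -2.06 on TRIM58-WT arrays. The part of these markers in the caveolar results was not tested.

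Genes whose levels were most like those of CAV1 over the 10 replicates, of 12822, were C11orf68, NABP1 and PEA15, each with a Pearson correlation of 0.99. For CAVIN1 they were TLE1 (r = 0.991), LMF2 (r = 0.988) and CSNK2A1 (r = 0.987). These replicates share line, group and slide, so the correlations are a description.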

How the data were processed

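RNA from A549 and HCC827 transfectants was hybridised by the authors to Agilent SurePrint G3 Human GE 8x60k single-colour arrays. The deposited scanner files hold background-subtracted processed signal intensities from Feature Extraction (11.5.1.1 per the file headers, 10.7 per the submitters' processing notes). A deposited log2 table by the authors, made in GeneSpring GX with a baseline subtracted from each probe, served as an alternative: after that baseline 95.5% of its values lay within 0.01 of those used here.

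Control and outlier spots were left out, spots of a probe averaged, and the log2 75th percentile over 42405 probes was subtracted within every array. Symbols came from RefSeq accessions (27237 probes, 20245 genes). The design annotation and the promoter table (GRCh38.p14) are of different builds, so no probe coordinates are given. Testing took probes that were well above background throughout at least 1 of the groups in a comparison, and used limma 3.58.1 in R 4.3.3 with Benjamini-Hochberg adjustment over all of them. Calls needed an adjusted p below 0.05 and at least 2-fold (the difference between lines at the adjusted p alone). A gene is represented by its probe with the highest mean over the 11 arrays. Precision is limited by how few arrays there were.

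Named were TRIM58, the 7 members with every probe, the called genes of 3 lists (at most 5 a list and comparison, by adjusted p) and the 3 genes most like CAV1 and CAVIN1. Members, lists and rules were chosen with earlier results of these data known, and the neighbour window and promoter motifs after values were seen. The fits were tested on simulated data. Those of all 4 groups were simulated with 1 spread for all groups, after a simulation with a spread for each line gave more false calls than the adjusted p allows. In the data the median SD was 0.293 and 0.313 in A549 mock and TRIM58-WT and 0.113 and 0.141 in HCC827, so fits over both lines may be too liberal.

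The result of 1 marker list is not reported here.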

Additional observations from a re-analysis of the deposited data

Results flagged for a closer look

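CAVIN3 differed between the lines in its change with TRIM58-WT, by a test of the difference itself. The fitted A549 change minus the HCC827 change was -9.53 on the log2 scale (limma, adjusted p = 5.4e-05), with CAVIN3 lower in 3 of 3 A549 TRIM58-WT replicates than in any mock and higher in 2 of 2 HCC827 replicates. It lay between -9.93 and -5.02 in the 20 alternatives that gave a value, with adjusted p up to 0.0056. The A549 TRIM58-WT signal was not well above background, so the size is not a measured fold.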

How the results depend on the processing

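CAVIN3 stayed called in A549 and in the difference between lines in the 20 alternatives that tested it (A549 log2 difference -8.76 to -3.81, adjusted p up to 0.0266). Requiring probes well above background on every array left it untested, so that 0 members were called in A549 and 0 in the line difference. Members called in A549 (1 as reported) were 2 under median centring, quantile normalisation, normexp, separate mock 1-1 and 1-2, and all 4 groups in a single fit, 3 with slide as a block, and 1 to 3 when leaving out a replicate (3 without mock 3, 2 without TRIM58-WT 1). Beside CAVIN3 these were EHD2 (adjusted p = 0.0114 with slide as a block, 0.0107 without mock 3), CAVIN2 under median centring (adjusted p = 0.0130), with slide as a block (0.0323) and without TRIM58-WT 1 (0.0227), and CAV1 without mock 3. The fit with slide as a block also took mock 1-1 and 1-2 as separate samples. In HCC827 (0 as reported) 1 member, CAVIN3, was called under median centring (adjusted p = 0.0149), quantile normalisation (0.0466), normexp (0.0420) and the every-array filter (0.0262), and 0 when leaving out any replicate. In the line difference (1 as reported) 2 were called under normexp, separate mocks and each group with its own spread, and 1 to 2 when leaving out a replicate (2 without mock 3 or TRIM58-WT 1), the added member being CAVIN2 without TRIM58-WT 1 (adjusted p = 0.0307) and EHD2 otherwise. CAVIN2 was not well above background on any HCC827 array or on A549 TRIM58-WT 2 and 3. Its call therefore does not show a difference between the lines. In the mock cells 4 were called as reported, and 3 to 4 when leaving out a replicate. Causes were not tested.

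Signs reversed for values far from any threshold. CAV2 in A549 became 0.082 within slide 1 and 0.037 without TRIM58-WT 2 (-0.098 to 0.037 when leaving out a replicate). The line difference of CAV1 became -0.20 under median centring, and that of CAVIN1 -0.25 under median centring, -0.078 without A549 mock 1, -0.034 and -0.038 without A549 TRIM58-WT 2 and 3, -0.18 without HCC827 TRIM58-WT 2 (-0.18 to 0.51 when leaving out a replicate), and -0.036 with A549 TRIM58-WT 2 and 3 averaged. EHD2 between mock cells became -0.13 with the replicate block, -0.077 within slide 1 and -0.11 without mock 3 (-0.11 to 0.53 when leaving out a replicate). Averaging TRIM58-WT 2 and 3 and the separate spreads were chosen after seeing the data. Median centring moved the median of all probes by -0.37 in A549.

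Replicate numbers were not used to pair the samples in the main fits. Deviations of same-numbered A549 samples correlated at 0.50, -0.42 and 0.50. With different numbers, mock 2 and TRIM58-WT 1 gave 0.41 and mock 3 and TRIM58-WT 2 gave 0.57, each pair on 1 slide. The remaining A549 pairs lay between -0.59 and -0.31. In HCC827, with 2 replicates a group, every pair has the same size by construction (0.077). These values cannot decide whether the samples were paired. With the replicate block 1, 0, 1 and 4 members were called in A549, HCC827, the line difference and the mock cells.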
